A study of Mus musculus with 3 samples.

Results

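Keratinocytes that leave the basal layer pass through a programme of terminal differentiation that is run by a small set of transcription regulators. Described here are 8 of their genes, Zfp750, Prdm1, Cebpa, Cebpb, Maf, Ehf, Elf3 and Hopx, out of 21900 protein-coding genes in the annotation. They were chosen by name, for their known role in epidermal differentiation, with earlier results of these data known, and all 8 were found. For each gene, all peaks over its mm10 span with 50 kb on either side were taken from the list of DLX3 binding sites and from the list of H3K4me3. This gave 48 of the 18087 DLX3 peaks and 17 of the 16735 H3K4me3 peaks, and no DLX3 peak fell in the windows of more than 1 member. The chromatin came from suprabasal keratinocytes of wild type mice on the BALB/c background, with no treatment given. The animals are adult by the sample labels and neonatal by the series text, and this could not be settled. Separate libraries were immunoprecipitated with anti-Dlx3, anti-H3K4me3 and IgG, 1 of each; the IgG library came without a peak list and is not analysed here. With 1 library per antibody there is no spread between replicates, so counts and scores below are descriptions of these lists, without tests.

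DLX3 is a homeodomain transcription factor of the upper epidermal layers, and H3K4me3, trimethylated lysine 4 of histone H3, marks the starts of active genes. ZNF750, the human counterpart of the Zfp750 product, is a zinc finger protein that in human keratinocytes lies downstream of p63, induces differentiation genes and represses progenitor genes. PRDM1, also called BLIMP1, is a zinc finger repressor needed in mouse skin for the last steps of epidermal differentiation and for sebaceous gland control. C/EBPα and C/EBPβ, from Cebpa and Cebpb, are leucine zipper factors that in mouse epidermis act together in the exit from proliferation. MAF, another leucine zipper factor, acts in human epidermal differentiation, EHF and ELF3 are ETS factors of epithelia, and HOPX is a small homeodomain protein that does not itself bind DNA.

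The label of the cells was checked on marker genes. H3K4me3 lay within 1 kb of an end of 8 of 8 suprabasal keratinocyte markers (Krt1, Krt10 and Lor among them) and of 6 of 6 basal markers (such as Krt5 and Krt14). It lay at 4 of 5 fibroblast markers, 2 of 4 melanocyte markers, 1 of 6 immune markers and 1 of 4 endothelial markers. By the same rule, 59.3% of all protein-coding genes were marked. Marked genes of the cell types other than keratinocytes were Pdgfra, Col1a2, Dcn and Col1a1, Mitf and Pmel, Cd79a, and Kdr, and among those without the mark were Ptprc, Cd3e, Pecam1, Cdh5, Col3a1, Tyr and Dct. The highest score of a list was 2180.19 for suprabasal, 1451.24 for basal, 476.21 for fibroblast, 2282.68 for melanocyte, 1971.7 for immune and 328.62 for endothelial markers. What part such cells have in the peaks described here was not tested. Neither the read depth of the libraries nor the number of reads in a peak is in the lists. The score of a peak is the authors' value, and it was compared only within its own list. Scores begin at 50.01 for DLX3 and at 50 for H3K4me3, and 766 H3K4me3 peaks share the value 3100.

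DLX3 lay over the RefSeq start of Cebpa and over both listed starts of Hopx. RefSeq promoter windows on GRCm38.p6, which run from 250 bases before to 50 bases after a start, were at hand for 5 of the 8 genes, Prdm1, Cebpa, Cebpb, Elf3 and Hopx. Those under DLX3 are printed, with that of Cebpb, the gene with the most DLX3 peaks, beside them for contrast. They are shown 5′ to 3′ on the strand of the gene, and capitals mark matches to any of 5 motifs searched on both strands. The motifs are TAATTA and TAATTG, cores bound by many homeodomain proteins, TGANTCA for AP-1, TTGCNNAA for C/EBP factors, and TATAAA for the TATA box. No matches overlapped one another in these windows.
Cebpa, chr7:35119043-35119342, plus strand: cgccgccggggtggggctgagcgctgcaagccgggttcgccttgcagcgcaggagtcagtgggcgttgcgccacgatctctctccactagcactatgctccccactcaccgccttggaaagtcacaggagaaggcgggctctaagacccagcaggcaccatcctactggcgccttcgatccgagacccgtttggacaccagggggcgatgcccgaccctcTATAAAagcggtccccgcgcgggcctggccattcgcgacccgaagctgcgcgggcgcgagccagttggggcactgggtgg
Hopx upstream start, chr5:77115074-77115373, minus strand: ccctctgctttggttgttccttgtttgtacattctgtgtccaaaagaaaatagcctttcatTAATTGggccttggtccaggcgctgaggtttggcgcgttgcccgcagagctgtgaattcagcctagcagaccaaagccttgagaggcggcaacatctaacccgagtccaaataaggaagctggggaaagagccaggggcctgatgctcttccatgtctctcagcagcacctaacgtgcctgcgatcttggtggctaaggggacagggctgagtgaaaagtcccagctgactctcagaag
Hopx inner start, chr5:77095218-77095517, minus strand: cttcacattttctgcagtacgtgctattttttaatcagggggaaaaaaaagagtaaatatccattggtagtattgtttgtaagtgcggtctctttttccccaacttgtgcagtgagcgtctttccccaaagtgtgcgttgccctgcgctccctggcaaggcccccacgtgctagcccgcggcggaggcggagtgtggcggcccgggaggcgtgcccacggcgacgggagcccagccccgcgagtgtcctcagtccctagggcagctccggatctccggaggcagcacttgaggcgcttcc
Cebpb, chr2:167688665-167688964, plus strand: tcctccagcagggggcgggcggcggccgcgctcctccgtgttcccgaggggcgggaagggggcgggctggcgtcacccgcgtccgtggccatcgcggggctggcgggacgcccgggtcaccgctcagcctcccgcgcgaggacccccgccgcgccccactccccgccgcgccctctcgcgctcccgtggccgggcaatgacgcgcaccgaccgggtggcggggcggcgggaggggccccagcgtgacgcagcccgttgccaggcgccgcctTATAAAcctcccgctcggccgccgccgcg

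All 300 bases of the Cebpa window and all 300 of the inner Hopx window lay under a DLX3 peak, and so did 173 bases of the upstream Hopx window. The Cebpb window had no DLX3 peak, the nearest beginning 188 bp past it, inside the gene. At Cebpa the capitals show a TATA box that begins 30 bases before the start, and at Cebpb a TATAAA begins 21 bases after the annotated start. The upstream Hopx window holds the only homeodomain core of the 4, a TAATTG 189 bases before the start, and this match lay 61 bp outside the DLX3 peak. The inner Hopx window held none of the 5 motifs. Of 32851 promoter windows in the table, 5.29% held TAATTA, 8.0% TAATTG, 7.81% the AP-1 motif, 10.8% the C/EBP motif and 13.6% the TATA box. Among the 6003 windows under a DLX3 peak 6.31% held either homeodomain core, against 6.44% of the 8583 windows under H3K4me3 without DLX3. The GC content was 67.3% at Cebpa, 80.7% at Cebpb, 53.0% at the upstream and 59.0% at the inner Hopx start, against a median of 52.7% over all windows and 63.7% under DLX3 peaks. The Prdm1 window held 1 AP-1 match (TGAATCA, 48 bases before the start) and the Elf3 window none of the motifs, and neither met a DLX3 peak.

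Binding around the members was dominated by Cebpb, Cebpa, Hopx and Zfp750, while Maf was nearly free of it. Within 50 kb of the span Cebpb had 10 DLX3 peaks, Cebpa 9, Hopx 8, Zfp750 7, Prdm1 6, Ehf 4, Elf3 3 and Maf 1. All 8 members thus had at least 1 peak, as did 63.8% of all protein-coding genes. The median was 6.5 peaks per member, against 1 over all protein-coding genes and 2 over the 12988 genes with H3K4me3 within 1 kb of an end. At least as many peaks as at Cebpb were found at 1.43% of all protein-coding genes, as many as at Cebpa at 2.30%, as many as at Hopx at 3.62%, as many as at Zfp750 at 5.67% and as many as at Prdm1 at 8.68%. Ehf (20.6%), Elf3 (30.4%) and Maf (63.8%) had counts that are common. Longer genes have longer windows, so the count per 100 kb was also taken. It was 9.85 at Cebpb, 8.77 at Cebpa, 6.46 at Zfp750, 6.24 at Hopx, 3.14 at Prdm1, 2.86 at Ehf and at Elf3, and 0.965 at Maf. Its median was 4.69 over members, 0.890 over all protein-coding genes and 1.58 over those with H3K4me3 within 1 kb of an end.

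**Figure D1:**
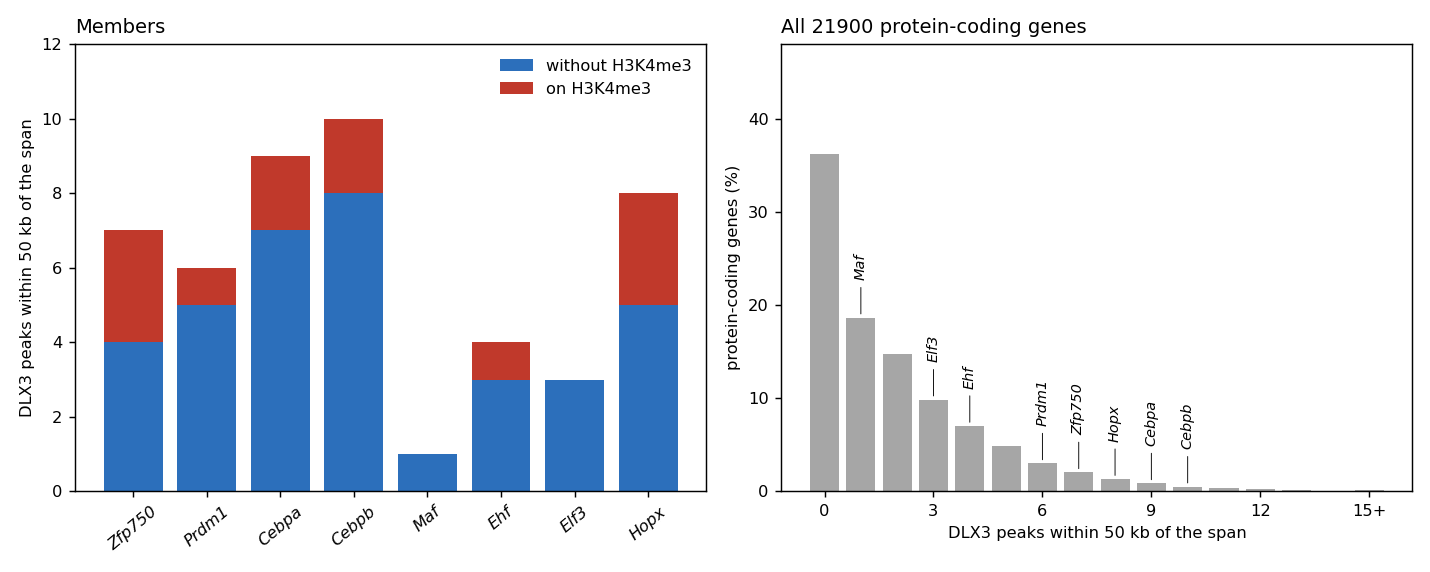
Left, the number of DLX3 peaks within 50 kb of each member, split by overlap with H3K4me3 (bars start at 0, 1 library). Right, the share of all 21900 protein-coding genes (%) at each number of peaks, with the members named over their own count; 5 members stand in the right tail at 6 to 10 peaks, and Maf stands at 1.

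These windows hold few other genes. No other protein-coding gene reached into the window of Prdm1, Cebpa, Maf or Ehf, and the median was 0.5 other coding genes over the members, against 3 over all protein-coding genes. Among the 1121 protein-coding genes that carried H3K4me3 and stood alone in their window, the median was 1 DLX3 peak. The member was the nearest protein-coding gene for 42 of the 48 peaks. The 6 others lay nearest to Tbcd, Atg5, Gm45095, Slc7a10, Rnpep and Thegl. By position, 9 peak centres were inside the member, 7 inside another coding gene, 11 inside a gene of long non-coding RNA (lncRNA) and 21 outside gene spans. Exons, introns and untranslated regions were not told apart, since the annotation gives spans alone.

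Most of these DLX3 peaks did not overlap H3K4me3, and the same held for the whole list, with 10472 of 18087 peaks without it. Of the 48, 12 (25%, 95% Wilson interval 14.9 to 38.8, which covers counting error only) overlapped H3K4me3 by 1 bp or more, against 42.1% (41.4 to 42.8) of all DLX3 peaks. This share depended on how far the window reached: within 20 kb of the spans it was 47.8%, 11 of 23 peaks. Windows with few other genes can also be compared. At the 1121 marked genes alone in their window, 1383 of 2025 DLX3 peaks were without H3K4me3, each peak counting once per window. At the members it was 36 of 48. The share on H3K4me3 at those genes lay inside the Wilson interval of the members. The 36 member peaks without H3K4me3 were spread over all members, with 8 at Cebpb, 7 at Cebpa, 5 at Hopx, 5 at Prdm1, 4 at Zfp750, 3 at Ehf, 3 at Elf3 and 1 at Maf. At least 8 such peaks were found at 0.616% of all protein-coding genes, at least 3 at 9.61% and at least 1, as at Maf, at 38.5%. Peaks of the members scored a median of 106.73, against 83.35 over all DLX3 peaks, and had a median width of 745 bp, against 627 bp. For peaks without H3K4me3 the median score was 106.73 in the member windows and 76.83 over the whole list. Of the 48 peaks 19 (39.6%, 27.0 to 53.7) were in the top 25% of all scores, a limit chosen after the values were seen.

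**Figure D2:**
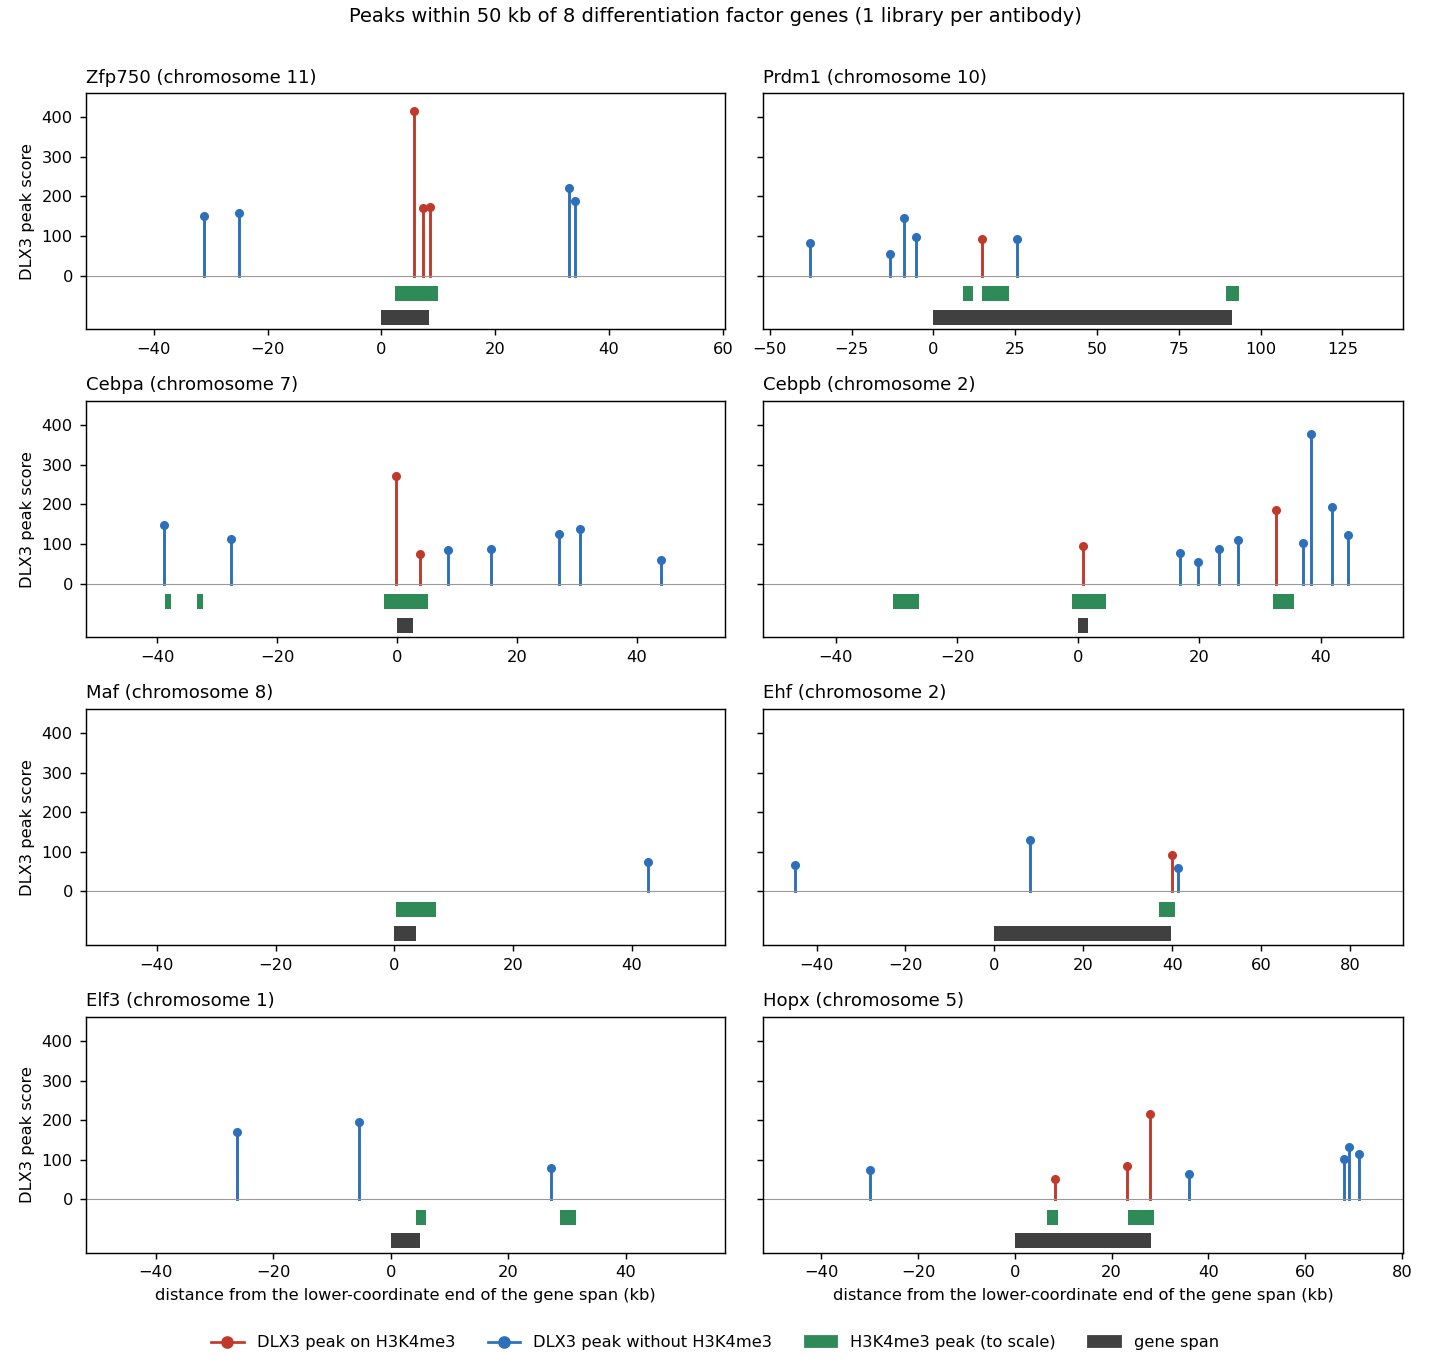
DLX3 peaks (stems, height is the deposited score), H3K4me3 peaks (green bars) and the gene span (dark bar) around each member, with distance in kb from the end of the span that has the lower coordinate. Zfp750, Cebpa and Hopx have their highest stem at the gene, Cebpb has its highest 38.4 kb to the right of the start, and Maf has 1 low stem far from the gene.

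Zfp750 had the highest-scoring DLX3 peak of the 8 loci, and it lay inside the gene (span chr11:121510976-121519342). The peak at chr11:121515832-121517538 scored 415.45, above or level with 99.3% of the DLX3 list, and was centred 2657 bp from the nearer end. Next to it, a peak at chr11:121517895-121518676 scored 170.02, and a peak at chr11:121518957-121520169, centred 221 bp outside the upper end, scored 174.23. These 3 peaks followed each other within 4.34 kb and lay wholly inside a single H3K4me3 peak of 7438 bp (chr11:121513444-121520881; score 3123.9). The other 4 stood without H3K4me3. On the upper side a pair at chr11:121543436-121544546 (222.24) and chr11:121544653-121545378 (187.26) was centred 24.6 and 25.7 kb away, and on the lower side peaks of 159.18 and 151.69 were centred at 25044 and 31258 bp from the lower end. The lowest of the 7 still stood at the 83.5 percentile of the list. Zfp750 lies within the span of Tbcd, the gene of a tubulin folding factor, so its flanking peaks are also Tbcd peaks by position, and 1 of them was nearer to an end of Tbcd.

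Prdm1 had 6 DLX3 peaks of moderate score around a long gene (span chr10:44437174-44528558) with 3 H3K4me3 peaks. The RefSeq start with a promoter sequence, at 44458748, lay in a H3K4me3 peak of 8398 bp with a score of 3100 (chr10:44451953-44460350), while a narrower one of 3910 bp and 1232.14 (chr10:44526591-44530500) covered the upper end of the span. A weak one of 96.44 lay at chr10:44446326-44449365. The highest DLX3 peak, chr10:44427536-44428668 (146.35), was centred 9072 bp outside the lower end of the span, followed by 97.0 at chr10:44431541-44432270, 5269 bp outside it. The one nearest to the start, chr10:44462435-44463076 (93.39), was 4007 bp from it and without H3K4me3. The peak at chr10:44451531-44452407 (92.53) covered the downstream edge of the broad H3K4me3 peak, with 455 of its 877 bp inside. The remaining 2 scored 83.18 and 54.04, the second within the lncRNA gene Gm35028. No DLX3 peak covered the listed start of Prdm1 or the upper end of its span.

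Cebpa carried DLX3 at its start and at a string of sites on both sides. The peak over the start printed above (chr7:35118587-35119553) scored 272.5, at the 96.5 percentile, and was centred 223 bp before the start. It lay wholly in an H3K4me3 peak of 7340 bp with a score of 3100 (chr7:35117048-35124387), which also held a DLX3 peak of 74.0 centred 1071 bp past the other end (chr7:35122739-35123260). None of the other 7 overlapped H3K4me3. The highest of them were 147.93 at chr7:35080136-35080512, 39.0 kb before the gene, and 138.65 at chr7:35149202-35150271, 27.8 kb past it. The rest scored 58.89 to 124.94. Of these 7 peaks, 3 were inside lncRNA genes (Gm35611; Gm35724 with Gm35665; Gm38988). The peak of 147.93 also falls in the window of the related gene Cebpg, where it is the highest. A weak H3K4me3 peak (chr7:35080544-35081616, score 84.97) began just past the end of this DLX3 peak, without overlap. Another weak H3K4me3 peak, of 51.85, lay at chr7:35085817-35086877.

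At Cebpb the higher-scoring peaks lay far from the gene. The single DLX3 peak at the gene, chr2:167689152-167690261, scored 95.7 (60.1 percentile) and covered most of the 1518 bp gene, within an H3K4me3 peak of 5562 bp at a score of 3100 (chr2:167687946-167693507). The other 9 peaks formed a run past the gene in which no neighbouring centres were more than 10 kb apart. It reached over 28.1 kb, from 167705624 to 167733723. Scores in the run went from 54.74 to 378.2. Its highest peak, chr2:167726948-167727666, was at the 98.9 percentile of the list, centred 38.4 kb from the start of Cebpb and inside the lncRNA gene Gm38464. Next came 193.69 at chr2:167730081-167731569, also in Gm38464, and 185.0 at chr2:167720997-167722248, which overlapped an H3K4me3 peak of 3486 bp and score 270.34 (chr2:167721102-167724587). In all, 4 of the run lay inside Gm38464. No DLX3 peak lay between Cebpb and the lower edge of its window, where an end of Tmem189 carried H3K4me3 (2704.67). A further 9 DLX3 peaks, up to a score of 233.68, were found at 50 to 100 kb from Cebpb, where all other members together had 8.

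Maf had broad H3K4me3 and hardly any DLX3. An H3K4me3 peak of 6678 bp and score 2550.96 (chr8:115703533-115710210) covered nearly all of the gene and ran past its upper end (span chr8:115703253-115706894). The only DLX3 peak of the window, chr8:115745681-115746244, scored 75.33, at the 42.1 percentile, and was centred 39.1 kb away without H3K4me3. Maf was the member with no DLX3 peak within 5 kb of an end.

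The ETS genes Ehf and Elf3 had the narrowest and weakest H3K4me3 of the members. At Ehf (span chr2:103263431-103303275) an H3K4me3 peak of 1508 bp scored 64.85 over the upper end (chr2:103302563-103304070), and one of 2146 bp scored 97.96 next to it inside the gene (chr2:103300401-103302546). A DLX3 peak of 90.92 (chr2:103303000-103303796), centred 123 bp from that end, lay wholly in the weaker of them, and another of 59.49 followed 1373 bp outside the gene (chr2:103304428-103304868). The highest DLX3 score at Ehf was 129.92, at chr2:103271067-103272044, inside the gene 8124 bp from its lower end, and the last was 66.77 at chr2:103218260-103218843. At Elf3 (span chr1:135253574-135258472) the start had an H3K4me3 peak of 1715 bp and score 109.77 (chr1:135257836-135259550) and no DLX3. Its 3 DLX3 peaks lay elsewhere. They scored 196.14 at chr1:135247731-135248595, with its nearest base 4979 bp past the far end of the gene, 168.88 at chr1:135226985-135227924, 26.1 kb away, and 78.21 at chr1:135280716-135281022 inside the neighbouring gene Rnpep.

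Hopx carried DLX3 at both of its RefSeq starts. The upstream start, printed above, was covered by a peak of 215.16 (chr5:77114621-77115246; 93.0 percentile), centred 190 bp inside the gene and wholly within H3K4me3 of 5370 bp and score 543.35 (chr5:77110427-77115796). The inner start was covered by a weak DLX3 peak of 52.53 (chr5:77094928-77095592; 5.75 percentile), centred 7 bp from it, in H3K4me3 of 2280 bp and the higher score of 962.0 (chr5:77093577-77095856). A peak of 84.47 at chr5:77109774-77110479 touched the edge of the wider H3K4me3 peak by 53 bp. The other 5 were without H3K4me3. A group of 3 (102.51, 132.13 and 113.4, the highest at chr5:77155601-77156301) was centred 39959 to 42972 bp before the upstream start, all inside the lncRNA gene Gm34598, and the others scored 64.26 and 74.96.

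**Figure D3:**
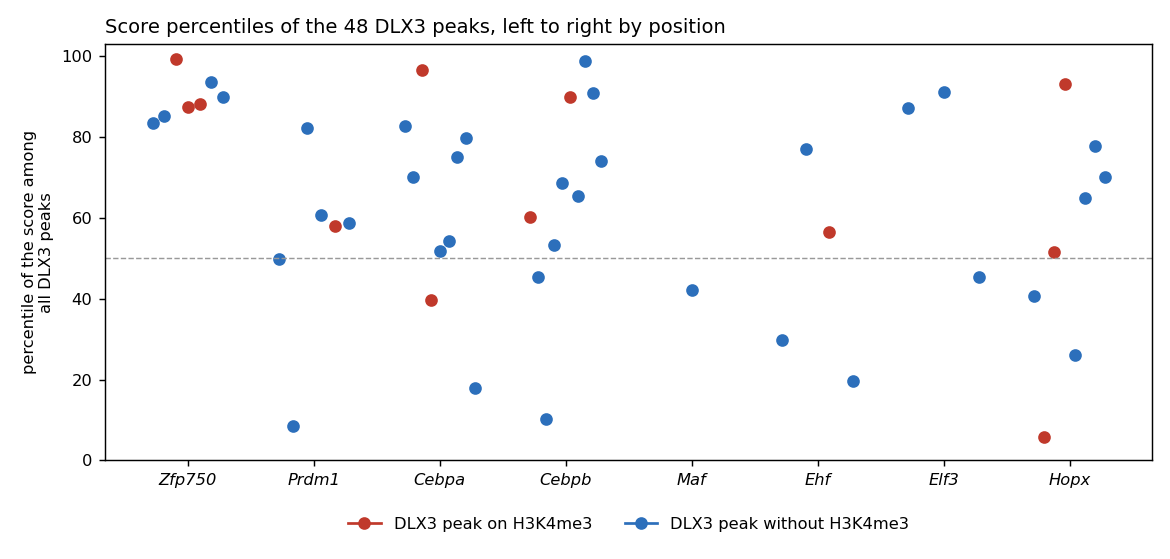
Each point is 1 of the 48 DLX3 peaks, placed by member and, within it, from lower to higher coordinate; the vertical axis is the percentile of its score among all 18087 DLX3 peaks, and the dashed line is at 50. All 7 points of Zfp750 are at 83.5 or above, while those of Cebpb and Hopx run from near the bottom of the list to 98.9 and 93.0.

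Close to the genes, 7 of the 8 members had a DLX3 peak with a base within 5 kb of an end, against 35.8% of all protein-coding genes. For Prdm1 and Elf3 this rests on peaks 4904 and 4979 bp from the span, just inside the limit, and within 1 kb of an end the count was 5 of 8, made up of Zfp750, Cebpa, Cebpb, Ehf and Hopx, against 27.6% of all protein-coding genes. H3K4me3 was within 1 kb of an end at 8 of 8 members, against 59.3% of all protein-coding genes. The widest such peak measured 7438 bp at Zfp750, 7340 at Cebpa, 6678 at Maf, 5562 at Cebpb, 5370 at Hopx, 3910 at Prdm1, 2146 at Ehf and 1715 at Elf3. The median was 5466 bp for the members and 2400 bp for all 12988 marked protein-coding genes. Zfp750, Cebpa, Maf, Cebpb and Hopx were at or above 97.0% of the marked genes, whereas Ehf stood at the 38.5 and Elf3 at the 18.4 percentile. The value of Prdm1 is that of its span end, and its inner H3K4me3 peak was wider, at 8398 bp. Width of H3K4me3 and number of DLX3 peaks did not go together at Maf, which had 1 of the widest domains and the fewest DLX3 peaks. Whether signal shared by all immunoprecipitations at active starts adds to the DLX3 peaks there was not tested.

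**Figure D4:**
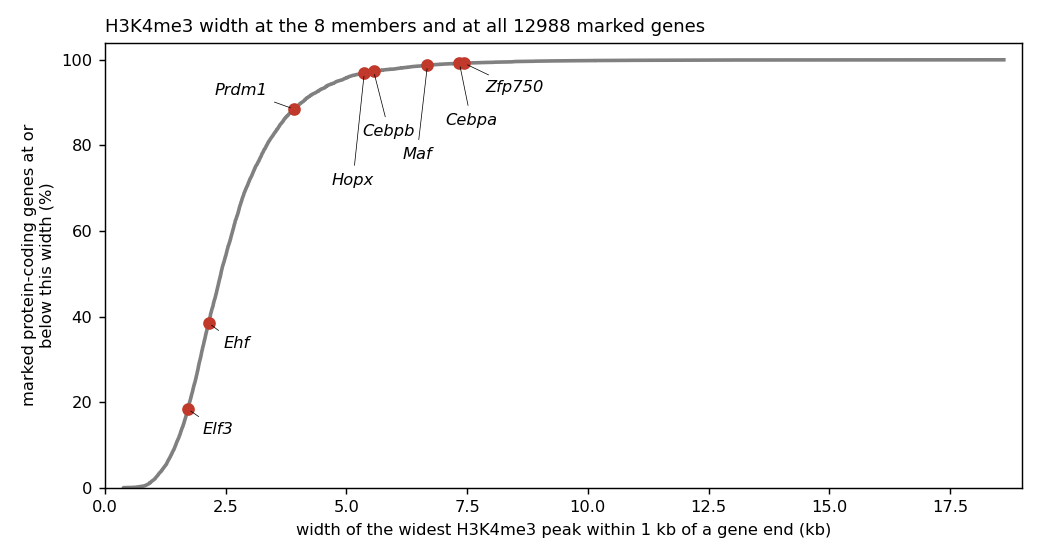
Cumulative share of the 12988 marked protein-coding genes (%) by the width in kb of their widest H3K4me3 peak within 1 kb of an end, with the members as points on the curve. Hopx, Cebpb, Maf, Cebpa and Zfp750 sit on the plateau at 5370 bp and above, and Ehf and Elf3 sit below the middle of the curve.

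Relatives of the members in the same gene families had a median of 2 DLX3 peaks within 50 kb. This median was 1 over all protein-coding genes and 2 over those with H3K4me3 within 1 kb of an end. Of the 20 relatives, 7 had a peak within 5 kb of an end, close to the 35.8% of all protein-coding genes. Beside 9 peaks at Cebpa and 10 at Cebpb, Cebpd and Cebpg had 2 each, Cebpe 1 and Cebpz 0, and none of these 4 had a peak within 5 kb. Beside 1 at Maf, the small Maf genes Mafk (7 peaks), Maff (5) and Mafg (5) had a peak near an end, and Mafa had 0 and Nrl 2. Among ETS relatives of Ehf and Elf3, Elf5 and Spdef had neither DLX3 nor H3K4me3, Elf4 had 0 and Elf2 3 DLX3 peaks, and Elf1 had 7 with 193.34 near an end. Of the Prdm genes, Prdm4 had the highest score near an end, 245.69, from 3 peaks, while Prdm2 had 2 peaks, Prdm16 had 3 and Prdm8 had 0.

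Other regulators of epidermal differentiation had counts close to those of the members. Both sets of genes were chosen with earlier results of these data known. Of 23 such genes, 18 had a DLX3 peak within 5 kb of an end and 23 within 50 kb. Over all protein-coding genes these shares were 35.8% and 63.8%. The 23 genes had a median of 7 peaks (1 to 13) and a median H3K4me3 width of 5463 bp at the 20 marked ones. The highest scores near an end were at the Notch target Hes1 (519.87), at Ovol1 (386.36), a zinc finger gene of the exit from proliferation, at Grhl3 (384.94), a barrier regulator, and at Junb (332.59), an AP-1 subunit gene. Of the 5 genes of human ZNF750 partner proteins, 3 had a peak within 5 kb of an end, Ctbp1 (332.9), Klf4 (279.46) and Ctbp2 (57.15), and Kdm1a had none within 50 kb.

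Genes most like each member were sought over all protein-coding genes by the distance, in percentile points, over 4 measures of the lists: the number of DLX3 peaks and the highest DLX3 score within 50 kb, the highest DLX3 score within 5 kb of an end, and the H3K4me3 width. For Prdm1 this width was the 3910 bp at its span end, not the 8398 bp of the peak over its listed start. Its DLX3 score within 5 kb of an end, 97.0, came from a peak outside the lower end of the span. The neighbours of Prdm1 are thus matched on the ends of its span. The AP-1 genes Fosl2 (0.77 points; 7 peaks) and Jun (1.29; 7) were nearest to Zfp750. The junction gene Jup (0.64; 9) and the receptor gene Notch1 (1.25; 11) were nearest to Cebpa, and Erf (1.26; 13) and Stk11 (1.66; 19) to Cebpb. Nearest to Hopx were Rnf43 (1.34; 8) and Alox12 (1.82; 8), and nearest to Elf3 were Zfp653 (1.42; 3) and Lhx1 (1.87; 3). Maf was nearest to Hmga2 (2.24; 1) and Zfp462 (2.51; 1), Ehf to Cfap52 (1.18; 4) and Nav1 (4.37; 4), and Prdm1, with the most distant neighbour in first place, to Traf4 (3.62; 8) and Katna1 (3.88; 5).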

How the data were processed

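ChIP-seq was done on suprabasal keratinocytes fixed with formaldehyde, 1 library per antibody; library fragments were amplified by PCR, per the labels' protocols. The submitters' processing notes name Bowtie 1.1.2, MACS 1.4.2 and HOMER with mm10, without roles or settings. The deposited lists, 1 for DLX3 and 1 for H3K4me3, give the position and a score of each peak as the authors made them. The range of the scores has the form that MACS 1.4 gives, while the control used for the calls is not stated. Read depths are unknown. Starts were converted to count from 1. Gene spans and promoter sequences came from RefSeq tables of GRCm38.p6, the assembly of mm10, which give no exons; strand was taken from the promoter table, where 5 of 8 members matched. A peak counted when any of its bases lay in a window, and peaks overlapped when they shared at least 1 bp. A percentile is the share of values at or below. Shares carry 95% Wilson intervals. Counting was tested on simulated peaks (Python 3.11.15, pandas 2.3.3, scipy 1.17.1). The members and gene lists were chosen with earlier results of these data known. Named were all DLX3 peaks of windows with 5 or fewer, otherwise the 3 highest and the one nearest to a start; the 4 highest genes of each list; and the 2 genes most like each member. Further peaks, the family relatives beyond the highest 4, and the Cebpb promoter were named after their values were seen. Some genes of the family list are counted in its totals and not reported here by name.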

Additional observations from a re-analysis of the deposited data

How the results depend on the processing

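Of 32 alternative values, 24 stayed within 1.5 times the reported count, within the interval of the share, or equal to the reported median. Some of these could not have moved, such as a count of 8 of 8 members under a wider window. The rule for counts also let 6 members in place of 8, and 5 in place of 7, pass as unchanged. With 20 kb on either side the windows held 23 DLX3 peaks, of which 47.8% overlapped H3K4me3, and the median of the members' highest score was 171.25; with 100 kb that median was 229.75, after 205.65 at 50 kb. With peaks at or above the median score of each list, 5 of 8 members had H3K4me3 within 1 kb of an end. With the top 20% of each list, 16 DLX3 peaks were left in the windows, 4 members had DLX3 within 5 kb of an end and 4 had H3K4me3 within 1 kb; fewer peaks enter by construction. Using peak centres, or only peaks nearest to the member (42), changed no count by over 1.5 times, and requiring the DLX3 centre or 50% of its width inside H3K4me3 gave a share of 22.9%. No paired analysis was possible because each antibody has 1 library. For the same reason no replicate could be left out. Without read counts, no limit can be set on binding below the threshold of the lists.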
